A study of Mus musculus with 2 samples.

Results

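The hepcidin genes and the genes for iron transport, storage and sensing were described in the liver of 1 control and 1 iFIRKO library, as the 9 gene symbols *Hamp*, *Hamp2*, *Trf*, *Tfrc*, *Tfr2*, *Slc40a1*, *Fth1*, *Ftl1* and *Hfe*. They were chosen by name and each had 1 row in both deposited files, which hold 53342 rows and 53241 distinct symbols. Male mice received tamoxifen at 100 mg/kg on 5 days from the age of 7 weeks, and liver was taken 3 days after the last dose. iFIRKO mice carry the transgene Adipoq-CreERT2, a recombinase that tamoxifen activates, together with Insr flox/flox alleles, so that the insulin receptor gene is deleted in adipocytes and not by design in liver cells. The control sample is labelled WT for genotype, whereas the study's methods describe control mice as IR flox/flox, and it received the same tamoxifen. Whether a library came from 1 mouse or from a pool is not given in the sources used here, so no difference has a replicate check and no p-value was computed.

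Hepcidin is a peptide hormone that hepatocytes secrete. It binds ferroportin, the only known cellular iron exporter, and causes its degradation, which keeps iron inside macrophages, enterocytes and hepatocytes and lowers iron in plasma. Iron loading and inflammation raise hepcidin through BMP-SMAD and IL-6-STAT3 signalling, and erythropoietic demand lowers it. Inside cells, iron regulatory proteins bind a hairpin in mRNA, the iron responsive element. In a 5′UTR it blocks translation when iron is low, as in the ferritins and ferroportin, and in the 3′UTR of the transferrin receptor it protects the mRNA. Much of this control therefore acts on translation and is not visible in mRNA levels.

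The deposited value is the log2 of a normalized read count, which was returned to the linear scale. The estimated depth was 21138484 read pairs for control and 20652740 for iFIRKO, taking the commonest low value as 1 pair. A gene was examined when either library held 41.8 normalized reads of it or more, which left 13400 genes, and all 9 iron handling genes were among them. The fold change is iFIRKO over control with 4.18 normalized reads added to each value, and a gene was called higher or lower when it differed by more than 1.5-fold, the study's own limit. Intervals are 95% exact Clopper-Pearson intervals on estimated read pairs. They cover counting error only and compare these 2 libraries, not the genotypes. *Insr* itself was at 4246 normalized reads in control liver and at 3692 in iFIRKO liver. All 10 hepatocyte markers were abundant. Their log2 fold changes ran from -0.94 for *Apoa1* through -0.52 for *Cyp2e1* and -0.08 for albumin (*Alb*) to 0.29 for *Ttr*, with a median of -0.06. Only *Apoa1* was called, and it was lower (10%, beside 7.28% of all examined genes).

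The 2 hepcidin genes moved in opposite directions. *Hamp*, which encodes the iron-regulating hormone, was higher in the iFIRKO library, and *Hamp2*, its neighbouring duplicate, was lower. The other 7 genes were within 1.2-fold of the control value in either direction. Thus 1 of the 9 genes was called higher, beside 4.46% of all examined genes, and 1 was called lower, beside 7.28% of all examined genes. Neither count says anything about iron genes as a group. The median log2 fold change over the 9 genes was 0.01, and that over all examined genes was 0.01, with quartiles at -0.19 and 0.17.

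*Hamp* (ENSMUSG00000050440.8) lies on the reverse strand of chromosome 7 of GRCm38 (mm10) from 30942368 to 30944032, and *Hamp2* (ENSMUSG00000056978.8) on the same strand from 30922372 to 30924681, with 17686 bases between them. Each has 3 exons. Because the values of these copies differ so much, the letters that separate them matter for reading the counts. The 30 coding bases where the mRNAs differ most lie in exon sequence near the end of the reading frame, at chr7:30942481-30942510 for *Hamp* and chr7:30922512-30922541 for *Hamp2*, both read 5′ to 3′ on the reverse strand, and capitals mark the 9 bases that differ.
Hamp: caaTTccCAGtgtggtatctgttgCAaaAC
Hamp2: caaACccTCCtgtggtatctgttgTGaaGA

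Over the whole transcript the copies were 94.6% identical, with 22 differing bases among 410 aligned. The longest stretch they share is 87 bases, and 16.6% of all windows of 50 bases in *Hamp* occur unchanged in *Hamp2*. Read pairs that fall inside a shared stretch could have been given to either gene, and how the authors' counting treated them is not given in the sources used here.

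The promoters were also compared, because BMP-SMAD signalling acts on hepcidin through its promoter. The window was 250 bases before to 50 after the start of transcription (RefSeq, GRCm38.p6). The promoter windows of *Hamp* and *Hamp2* were 92.9% identical over 297 aligned bases. The core of the BMP response element, GGCGCC, occurred 1 time in the *Hamp* window, 109 bases before the start, and did not occur in the *Hamp2* window. The stretches below are the *Hamp* site with its flanks at chr7:30944121-30944150 and the bases of *Hamp2* aligned to it at chr7:30924270-30924299, and capitals mark the 2 bases that differ, 1 of which is inside the site.
Hamp: tcccgcctgtttggcGccactatTttcttg
Hamp2: tcccgcctgtttggcAccactatCttcttg

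GGCGCC reads the same on both strands and occurs in 11.9% of the 32851 promoter windows in the table. Among the 7 iron handling genes with a window in the table, GGCGCC was also found in 1 window of *Tfrc*, 89 bases before the start, and the E-box CACGTG, which also reads the same on both strands and which 7.15% of windows hold, was found in none. A match is a run of letters and not a measured binding site. Sites outside the window, such as further upstream, were not searched. Whether the site has a part in the difference between *Hamp* and *Hamp2* was not tested.

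*Hamp* measured 1785 normalized reads in control liver against 2792 in iFIRKO liver. Its fold of 1.56 is a log2 fold change of 0.64 (interval 0.52 to 0.77). That interval lies above 0 but spans the limit of 1.5-fold, which is 0.58 on the log2 scale, so whether *Hamp* passes the limit is within counting error. Of all examined genes, 96.3% had a smaller log2 fold change than *Hamp*.

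*Hamp2* measured 585.4 normalized reads in control liver against 196.9 in iFIRKO liver. The control value was 2.93 times the iFIRKO value, a log2 fold change of -1.55 (interval -1.92 to -1.24), which lies wholly beyond the limit. Only 47 of the 13400 examined genes had a smaller log2 fold change.

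The balance between the copies can be read within each library, where the scaling of the library does not enter. *Hamp2* gave an estimated 295 of 1193 hepcidin read pairs in the control library, a share of 24.7% (exact interval 22.3% to 27.3%). The intervals on this balance do not cover error in assigning reads between the 2 copies. In the iFIRKO library it gave 98 of 1485 pairs, 6.6% (5.39% to 7.98%). *Hamp* thus had 3.04 read pairs for each pair of *Hamp2* in control and 14.2 in iFIRKO, and the log2 ratio of *Hamp2* to *Hamp* differed between the libraries by -2.22, with an interval from -2.58 to -1.86. Summed, *Hamp* and *Hamp2* had 2371 normalized reads in control against 2989 in iFIRKO. The log2 fold change of the sum was 0.33 with an interval from 0.22 to 0.45, below the limit of 1.5-fold. This sum is not the value of the hormone gene *Hamp*, which had 0.64 on its own.

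**Figure D1:**
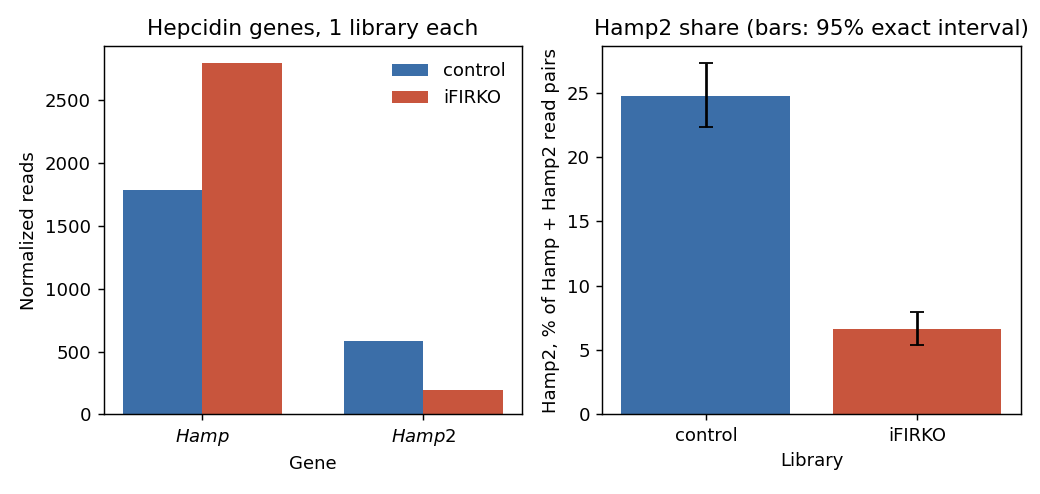
Left, normalized reads of *Hamp* and *Hamp2* in the control and iFIRKO libraries, 1 library each and therefore without error bars. Right, the percentage of hepcidin read pairs assigned to *Hamp2* in each library, with 95% exact intervals for counting error only. *Hamp* stood at 1785 and 2792 normalized reads and *Hamp2* at 585.4 and 196.9, and the *Hamp2* share was 24.7% in control and 6.6% in iFIRKO.

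The genes around the hepcidin locus were examined beside it, chosen after their values were seen. *Usf2*, a transcription factor gene on the same strand with 1215 bases between it and *Hamp*, had 1781 normalized reads in control against 1909 in iFIRKO, which is 0.10 as a log2 fold change (interval -0.03 to 0.23, which covers 0). *Lsr*, a further protein-coding gene nearby, had 9554 and 8591, a log2 fold change of -0.15. *Mag*, also nearby, was below the minimum in both libraries, at 29.2 and 8.03 normalized reads, a log2 fold change of -1.45 (interval -3.94 to -0.24). The locus is also overlapped on the opposite strand by the long non-coding RNA gene *Gm44662*, of which 89 exon bases lie on *Hamp2* exons and 0 on *Hamp* exons. *Gm44662* was listed at 0 in control and at 1.22 normalized reads in the iFIRKO library. The libraries were made with a stranded kit, but whether the counting used strand is not given in the sources used here.

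With only 2 libraries, a pattern is a single ratio, and many genes share any given ratio. Among genes that reached 418 normalized reads in either library, the 3 whose log2 fold change was nearest to that of *Hamp* were *Abcg2*, *Ccdc86* and *Sult3a1*. Each had a log2 fold change of 0.64, at distances of 8.64e-05, 0.000285 and 0.000638 from *Hamp*.

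*Tfr2*, *Hfe* and *Hfe2* encode the hepatocyte proteins through which transferrin-bound iron and BMP6 are sensed. *Tfr2*, transferrin receptor 2 (chromosome 5, 137569840 to 137587481), measured 19502 normalized reads in control liver against 20158 in iFIRKO liver, which is 0.05 as a log2 fold change (interval 0.01 to 0.09). *Hfe*, the haemochromatosis gene whose product associates with both transferrin receptors (chromosome 13, 23702034 to 23710854), had 2634 and 2620, a log2 fold change of -0.01 (interval -0.12 to 0.10). *Hfe2*, the symbol in these files for hemojuvelin, the BMP co-receptor, had 3551 and 3111, a log2 fold change of -0.19 (interval -0.29 to -0.09). *Tfr2* and *Hfe* thus stood at nearly the same level in both libraries, and none of the 3 was called.

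*Trf* encodes transferrin, the plasma iron carrier made by hepatocytes, and lies on chromosome 9 from 103204001 to 103230444. Its row had 128914 normalized reads in control against 114693 in iFIRKO, which is -0.17 as a log2 fold change (interval -0.18 to -0.15). This row may not hold all transferrin reads. GENCODE places the protein-coding gene *Gm20425* on the same strand, with 2108 of the 2571 exon bases of *Trf* inside its own exons, and also over *Srprb*. *Gm20425* had 593844 and 541647 normalized reads, the third-highest value in each library and 4.61 and 4.72 times that of *Trf*, while *Srprb* had only 557.4 and 698.3. The separate values of *Trf* and *Gm20425* are therefore uncertain. Their sum was 722758 in control and 656340 in iFIRKO, which is -0.14 as a log2 fold change (interval -0.15 to -0.13).

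*Tfrc* encodes transferrin receptor 1, the main route by which cells take up transferrin-bound iron (chromosome 16, 32608920 to 32632794). It had 3426 normalized reads in control against 3444 in iFIRKO, which is 0.01 as a log2 fold change (interval -0.09 to 0.11). Of the receptor read pairs, *Tfrc* gave 14.9% in control (14.3% to 15.6%) and 14.6% in iFIRKO (14.0% to 15.2%), and the log2 ratio of *Tfrc* to *Tfr2* differed by -0.04 with an interval from -0.15 to 0.07. The difference between the libraries in the balance of the receptors was thus within counting error.

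*Slc40a1* encodes ferroportin, the target of hepcidin (chromosome 1, 45908068 to 45926523). It had 6075 normalized reads in control against 5439 in iFIRKO, which is -0.16 as a log2 fold change (interval -0.23 to -0.08). Ferroportin is expressed by Kupffer cells, the resident liver macrophages, as well as by hepatocytes. All 12 macrophage markers (for example *Clec4f*, *Cd5l* and *Adgre1*) had a fold below 1, of which 9 were called lower (75%, beside 7.28% of all examined genes). Summed, the 12 markers had 47824 normalized reads in control against 30843 in iFIRKO, a log2 ratio of -0.63. The part of macrophages in the *Slc40a1* value was not tested. In whole liver RNA, fewer cells of a type and less RNA per cell cannot be told apart.

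*Fth1* and *Ftl1* encode the heavy and light chains of ferritin, the iron storage shell. *Fth1* (chromosome 19, 9980598 to 9985098) had 64414 normalized reads in control against 77231 in iFIRKO, which is 0.26 as a log2 fold change (interval 0.24 to 0.28). *Ftl1* (chromosome 7, 45457944 to 45459884) had 105445 and 123519, a log2 fold change of 0.23 (interval 0.21 to 0.25). Both intervals lie above 0 and well below 1.5-fold, so neither chain was called. Of all examined genes, 83.7% had a smaller log2 fold change than *Fth1* and 80.8% a smaller one than *Ftl1*.

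The light chain gave 62.1% of ferritin read pairs in control (61.8% to 62.4%) and 61.5% in iFIRKO (61.2% to 61.8%), and the log2 ratio of *Ftl1* to *Fth1* differed by -0.03 with an interval from -0.06 to -0.01. The log2 ratio of *Fth1* to *Trf* differed between the libraries by 0.43, with an interval from 0.40 to 0.46, although the *Trf* value has the limit given above. *Ftl1* has processed copies that share most of its sequence. *Ftl1-ps1* matches it at 99.6% of 910 aligned bases and contains 73.5% of its windows of 50 bases unchanged. *Ftl1-ps1* had 3959 and 4885 normalized reads and *Ftl2-ps* 1571 and 1910, which is 3.57% and 1.41% of the sum over *Ftl1* and its copies in control. With its copies summed, *Ftl1* had a log2 fold change of 0.23.

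**Figure D2:**
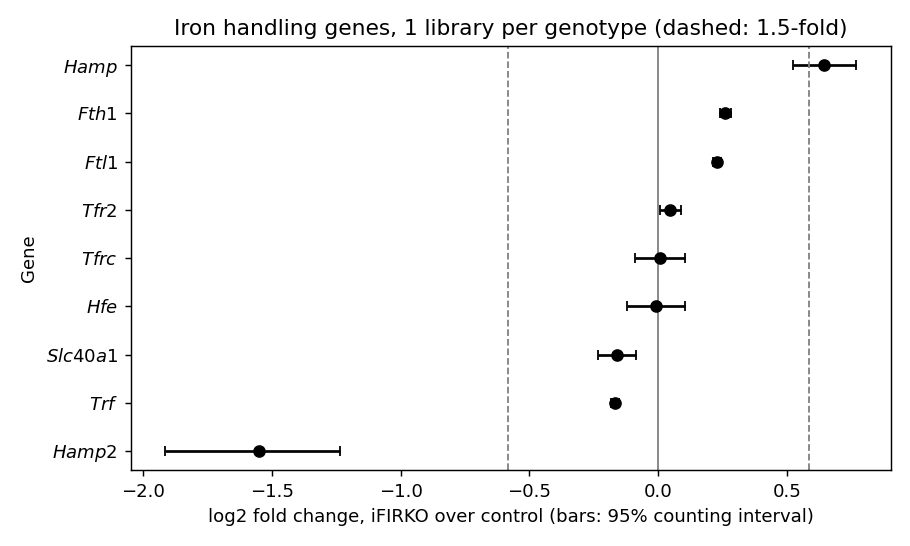
The log2 fold change of each iron handling gene, iFIRKO over control, with 95% exact counting intervals as bars (for *Fth1*, *Ftl1* and *Trf* they are close to the width of the point) and 1.5-fold as dashed lines. *Hamp2* lies at -1.55 beyond the lower line, the interval of *Hamp* (0.52 to 0.77) crosses the upper line, and the other 7 genes lie between -0.17 and 0.26.

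Erythroid cells are the main users of iron and a source of *Tfrc* and ferritin mRNA. Of 8 examined erythroid markers, 6 were called higher (75%, beside 4.46% of all examined genes), namely the 4 globin genes, *Alas2* and *Slc4a1*. The 2 called lower (25%, beside 7.28% of all examined genes) were *Klf1* and *Epor*. The summed level over 13 erythroid markers with a row was 13651 normalized reads in control against 27113 in iFIRKO, and *Gata1* was listed at 0 in both. The alpha globin genes *Hba-a1* and *Hba-a2* are close copies of each other, and so are the beta globin genes *Hbb-bs* and *Hbb-bt*. Separate values within each of these pairs are uncertain. The part of erythroid RNA in the *Fth1*, *Ftl1* and *Tfrc* values was not tested.

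Levels were compared between genes only per kilobase of 1 reference transcript for each gene. In the control library *Ftl1* had 108931 normalized reads per kilobase, *Fth1* 69336 and *Trf* 50142, which placed them at ranks 29, 41 and 55 of 13194 genes with a length. *Tfr2* followed at 6560, *Hamp* at 4354, *Slc40a1* at 1803, *Hamp2* at 1340, *Hfe* at 737.4 and *Tfrc* at 700.6 normalized reads per kilobase. Storage and carrier mRNAs thus stood above those of the hormone, the exporter and the receptors. The place of *Trf* among the first 3 depends on *Gm20425*. With its reads added, *Trf* would have 281120 normalized reads per kilobase in control and 255286 in iFIRKO, above *Ftl1* in both.

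In the iFIRKO library *Ftl1*, *Fth1* and the *Trf* row were at 127602, 83134 and 44610 normalized reads per kilobase. *Hamp* rose from rank 664 to rank 427 and reached 6810 normalized reads per kilobase, level with *Tfr2* at 6780. *Hamp2* moved from rank 1761 to rank 4230, at 450.5, which put it below *Hfe* at 733.6 and *Tfrc* at 704.4. Without replicates the spread needed to separate neighbours such as *Hfe* and *Tfrc*, which differed 1.05-fold per kilobase in control, is not known.

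**Figure D3:**
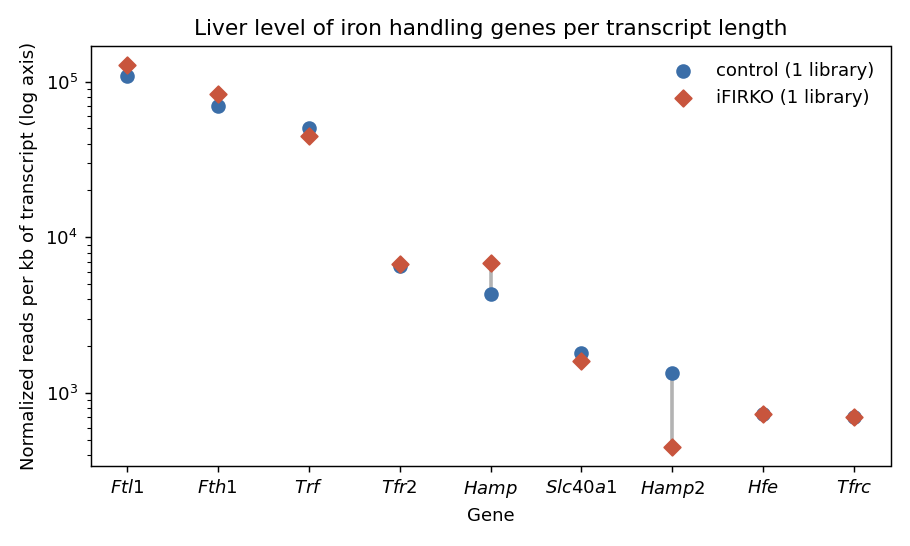
Normalized reads per kilobase of transcript on a log axis for each iron handling gene, ordered by the control level, with circles for the control library and diamonds for the iFIRKO library (1 each, no error bars). *Hamp* (4354 to 6810) and *Hamp2* (1340 to 450.5) show the wide gaps, and the *Trf* points leave out any reads counted for *Gm20425*.

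The iron responsive elements were located because they separate the genes controlled by iron at translation from the gene controlled through mRNA stability. Transcripts were searched on the sense strand for a C followed by 5 bases and CAGTGN, in which these 5 bases can pair with the 5 bases after the loop (A-T, G-C or G-T). The 5′UTR held 1 match in *Fth1*, *Ftl1* and *Slc40a1*, beginning 132, 170 and 224 bases before the start codon. The 3′UTR of *Tfrc* held 4 matches, beginning 889 to 1380 bases after the stop codon, of which the first and the last are shown. In each line the capitals mark the bulged C and the CAGTGN loop, and the positions in GRCm38 are chr19:9982731-9982760, chr7:45459779-45459808 (reverse strand), chr1:45925465-45925494 (reverse strand), chr16:32631218-32631247 and chr16:32631709-32631738.
Fth1: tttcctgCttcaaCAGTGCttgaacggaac
Ftl1: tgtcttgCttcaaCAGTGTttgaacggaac
Slc40a1: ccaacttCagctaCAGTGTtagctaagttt
Tfrc, first: taattatCggaagCAGTGCcttccataatt
Tfrc, last: taattatCgggaaCAGTGTttcccataatt

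Such a match occurred in the annotated 5′UTR of 28 of 20504 genes (0.137%) and in the 3′UTR of 127 of 20850 genes (0.609%). *Fth1* and *Ftl1* had log2 fold changes of 0.26 and 0.23, *Slc40a1* of -0.16 and *Tfrc* of 0.01. Of 23 examined genes with a 5′UTR match, 1 was called higher and 1 lower (4.35% each, beside 4.46% and 7.28% of all examined genes). The higher gene was *Alas2*, the first enzyme of haem synthesis in erythroid cells, which had 639.7 normalized reads in control against 1921 in iFIRKO. The lower one was *4930522L14Rik*, with 81.2 and 50.3. Of 93 examined genes with a 3′UTR match, 3 were called higher, *Pex11a*, *Sec22c* and *Zfp593* (3.23%), and 6 were lower (6.45%), both near the shares over all examined genes. Most of these matches are in genes with no known role in iron, so the count describes the motif search.

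The other genes of the pathway were taken from 8 lists by role, 104 genes with a row, of which 95 were examined. Of these 95, 2 were called higher (2.11%, beside 4.46% of all examined genes) and 4 lower (4.21%, beside 7.28%). Their median log2 fold change was 0.02, with 51 genes above 0 and 44 below it. The interval lay above 0 for 20 genes, below 0 for 24 and over 0 for 51. Genes named below that are called, or that are the most abundant of a list without a call, follow a rule, and the others were chosen after their values were seen.

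Hepcidin regulation by BMP-SMAD signalling held all but 1 of the lower calls. Of 24 examined genes 3 were lower (12.5%, beside 7.28% of all examined genes) and 0 higher, with a list median of 0.01. *Bmp6*, the BMP ligand that sinusoidal endothelial cells make in response to iron, had 155.0 normalized reads in control against 88.8 in iFIRKO, which is -0.78 as a log2 fold change (interval -1.37 to -0.26). *Smad9*, a receptor-regulated SMAD, had 274.0 and 170.8, a log2 fold change of -0.67 (interval -1.09 to -0.28). *Bambi*, a decoy receptor for this family, had 94.0 and 57.5, a log2 fold change of -0.67, and its interval from -1.40 to 0.02 covers 0. These are low levels, and each interval spans the limit of 1.5-fold.

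The ligand *Bmp2* had 669.0 normalized reads in control against 461.0 in iFIRKO, which is -0.53 as a log2 fold change and short of the limit. Sinusoidal endothelial cells make both ligands. All 10 of their markers had a fold below 1, of which 4 were called lower (40%, beside 7.28% of all examined genes). Summed, the 10 markers had 16533 normalized reads in control against 11879 in iFIRKO, a log2 ratio of -0.48. The part of these cells in the *Bmp6* and *Bmp2* values was not tested. The 8 stellate markers, by contrast, had a summed level of 13486 and 13618.

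Genes that BMP-SMAD signalling induces beside hepcidin were examined beside the ligands. *Id1* had 220.6 normalized reads in control against 271.8 in iFIRKO, which is 0.30 as a log2 fold change (interval -0.07 to 0.68). *Smad7*, an inhibitory SMAD, had 250.5 and 264.2, with an interval from -0.29 to 0.44, and *Smad6* 190.2 and 201.3, with an interval from -0.34 to 0.50. *Id3* had 1143 and 1415, and its interval from 0.15 to 0.47 lies above 0. *Id2* had 3177 and 3236 (interval -0.07 to 0.13), and *Atoh8* had 432.9 and 514.2 (interval -0.02 to 0.51). None of these was called, whereas *Bambi* of the same list was called lower, as given above.

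Upstream, *Tmprss6*, the protease that cleaves hemojuvelin and so restrains hepcidin, had 14932 and 17118, a log2 fold change of 0.20 (interval 0.15 to 0.24). *Fgl1*, also in the hepcidin regulation list, was lower, at 39084 and 30763, a log2 fold change of -0.35 (interval -0.38 to -0.31). In that list 13 examined genes had a fold above 1 and 11 a fold below it. *Erfe*, the erythroid hormone that suppresses hepcidin, was at 1.99 and 1.01 normalized reads, too few for a ratio.

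The inflammatory arm had a median log2 fold change of -0.16 over 14 examined genes. It had 1 lower call (7.14%, beside 7.28% of all examined genes). *Il1b*, the interleukin 1 beta gene, had 188.7 normalized reads in control against 119.1 in iFIRKO, which is -0.65 as a log2 fold change (interval -1.16 to -0.18). Macrophages are a main source of *Il1b*, and the part of their lower summed markers, given above, in this value was not tested. *Stat3* had 9145 and 8512, and *Socs3*, a STAT3 target, had 624.4 and 573.4 with an interval from -0.36 to 0.12. *Il6* was below the minimum in both libraries, at 21.8 and 20.1 normalized reads. The acute phase genes did not move together. *Saa2* had 22204 and 29373 normalized reads, a log2 fold change of 0.40, and *Saa1* had a log2 fold change of 0.13 (interval 0.10 to 0.16). The fibrinogen genes *Fga*, *Fgb* and *Fgg* had log2 fold changes of -0.14, -0.17 and -0.19. In this arm 11 genes had a fold below 1 and 3 had a fold above it, namely *Saa1*, *Saa2* and *Creb3l3* (log2 fold change 0.37, interval 0.31 to 0.44).

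None of the 7 genes for iron regulatory proteins and ferritin turnover was called. *Aco1*, the cytosolic aconitase that becomes iron regulatory protein 1, had 12295 normalized reads in control against 12951 in iFIRKO. *Pcbp1* and *Pcbp2*, chaperones that deliver iron to ferritin, had log2 fold changes of 0.17 and 0.00. *Ireb2*, which encodes iron regulatory protein 2, had 3310 and 2745, a log2 fold change of -0.27 (interval -0.38 to -0.17). Within the libraries *Aco1* gave 78.8% of the read pairs of both proteins in control (77.9% to 79.7%) and 82.5% in iFIRKO (81.7% to 83.4%).

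Of 10 examined genes for iron uptake and reductases, 1 was called higher (10%, beside 4.46% of all examined genes). This was *Lrp2*, the endocytic receptor megalin, at 39.7 and 64.4 normalized reads, and its interval from -0.15 to 1.58 covers 0. *Slc39a14*, the importer of iron not bound to transferrin, had 9269 and 10114, and *Slc11a2*, the divalent metal transporter DMT1, had 1460 and 1796, a log2 fold change of 0.30 (interval 0.16 to 0.44). *Lcn2*, which binds bacterial siderophores, had 6554 and 8316, a log2 fold change of 0.34. In the export list, the ferroxidase ceruloplasmin gene *Cp* had 70133 and 63116 normalized reads, a log2 fold change of -0.15 close to that of *Slc40a1*, and *Heph* had 89.4 and 82.5.

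Among 10 genes for haem and haemoglobin scavenging, 1 was called higher (10%, beside 4.46% of all examined genes). This was *Abcg2*, a transporter that exports porphyrins, at 2544 normalized reads in control against 3978 in iFIRKO, with an interval from 0.54 to 0.75. The plasma scavengers were not called. *Hpx*, haemopexin, had 338016 and 261480, a log2 fold change of -0.37, and *Hp*, haptoglobin, had 265758 and 212041, a log2 fold change of -0.33. *Hmox1*, haem oxygenase 1, had 939.0 and 912.2 with an interval from -0.23 to 0.15, and *Cd163*, the macrophage receptor for haptoglobin-haemoglobin, had 1558 and 1360, a log2 fold change of -0.20.

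No gene for iron-sulfur cluster assembly was called among 19 mitochondrial and 9 cytosolic genes. Their medians were 0.06 and 0.07, and 14 of the 19 mitochondrial and 6 of the 9 cytosolic genes had a fold above 1. *Hspa9*, the mitochondrial chaperone, had a log2 fold change of 0.01, *Iscu*, the scaffold, of 0.41 and *Nfs1*, the sulfur donor, of 0.06. *Fam96a*, *Ciao1* and *Ciapin1* of the cytosolic system had log2 fold changes of 0.06, 0.11 and 0.41.

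**Figure D4:**
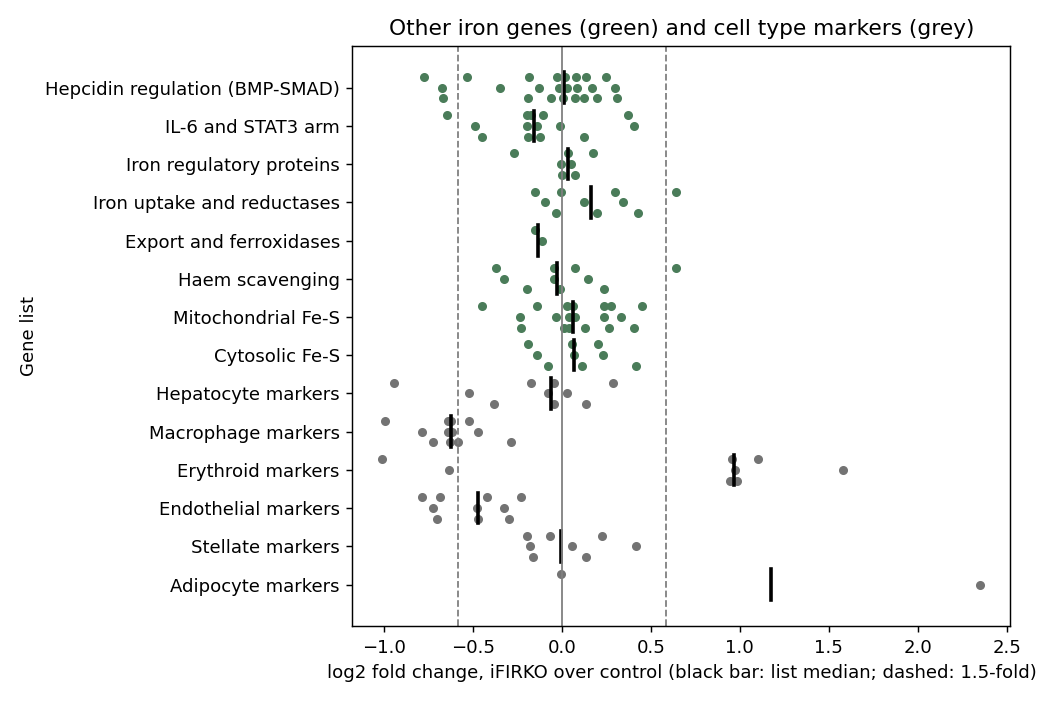
The log2 fold change, iFIRKO over control, of every examined gene in the 8 lists of other iron genes (green) and in 6 lists of cell type markers (grey), with the list median as a black bar and 1.5-fold as dashed lines. The iron lists have medians between -0.16 and 0.16, whereas the macrophage (median -0.62) and endothelial (median -0.47) markers lie to the left. Of the erythroid markers (median 0.97), 6 lie to the right and 2, *Klf1* and *Epor*, to the left. The adipocyte list has only 2 examined genes.

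**Figure D5:**
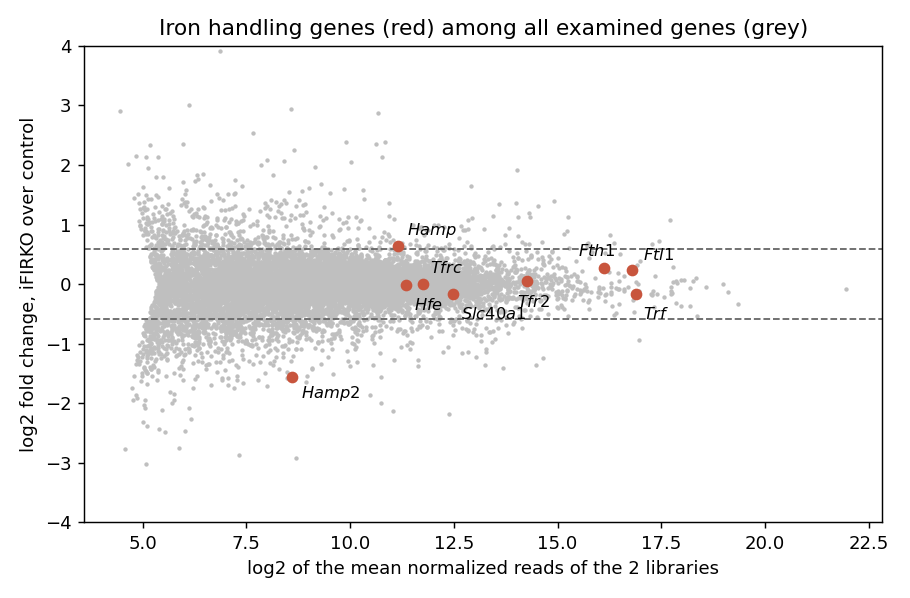
The log2 fold change against the log2 of the mean normalized reads for 13400 examined genes (grey) and the 9 iron handling genes (red), with 1.5-fold as dashed lines and 2 genes outside the vertical range. *Hamp2* lies at the lower edge of genes of its level and *Hamp* at the upper line, and the remaining iron handling genes lie within the dense band.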

How the data were processed

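Liver mRNA libraries of 1 control and 1 iFIRKO sample (TruSeq stranded mRNA kit, NovaSeq instrument) were analysed. The authors deposited 1 file per library that pairs each gene symbol with a log2 value of its normalized reads, in which scaled counts of 1 or less are listed as 0. Per the submitters' processing notes the build was mm10. The aligner, counter, annotation and normalization formula are not given in the sources used here. Among low values, 46.3% in the control and 46.8% in the iFIRKO library were whole pairs within 0.02 of a pair, so values were not treated as counts and read pairs are estimates. Members, list genes and markers at 3 pairs or fewer in either library got no fold change. The shares and medians over all examined genes were computed without this floor. The pseudocount was 4.18 and the minimum 41.8 normalized reads, both fixed shares of the mean library total. Positions, lengths and transcript sequences came from GENCODE M21, which holds 93.3% of the symbols, and promoters from RefSeq. A transcript matched to a RefSeq mRNA was preferred. The members and lists were chosen with earlier results of these data known. Genes were named by the rule that all members, all called genes of a list, or the 3 most abundant of a list without a call, and the 3 nearest to *Hamp* are given. Protein comparisons that had been planned were not made, and mRNA sequences were compared in their place. Some promoter and single-gene results are not reported here. Calls and intervals were tested on simulated whole read pairs with counting error only. The simulation held no fractional pairs and no variation between mice, so it cannot show how the intervals perform on these values. Alternatives changed the pseudocount, the minimum, the scaling, the fold limit, duplicate symbols and near-identical copies, and a sum of *Trf* with *Gm20425* was added after seeing the data. Scripts ran under Python 3.11.15 with scipy 1.17.1, pandas 2.3.3 and numpy 2.4.6, and plots were drawn in matplotlib 3.10.9.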

Additional observations from a re-analysis of the deposited data

How the results depend on the processing

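The calls for the 9 iron handling genes, 1 higher and 1 lower, were the same under every pseudocount, minimum and scaling tried and with duplicate symbols summed. With a fold above 2, *Hamp* was no longer called and 0 genes were higher. Its log2 fold change lay between 0.63 and 0.65 under these settings and that of *Hamp2* between -1.57 and -1.39. Summed with *Hamp2*, *Hamp* had 0.33, short of the limit, and *Trf* summed with *Gm20425* had -0.14. Over all examined genes the median log2 fold change was 0.0075, and it lay between -0.00465 and 0.0102 under the scalings. For *Tfrc*, at 0.01, the sign depended on the scaling, with a lowest value of -0.0043.

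Apart from *Abcg2*, the genes called among other iron genes were at 274.0 normalized reads or fewer. The 2 higher calls became 1 with a pseudocount 10 times as large, with the minimum in both libraries and with a minimum 5 times as large. The 4 lower calls became 1 with a pseudocount 10 times as large and 1 with a minimum 5 times as large. With a fold above 2 there were 0 higher and 0 lower. The smaller number of genes examined accounts for the changes with a stricter minimum, and the larger pseudocount shrinks low genes by construction. Of 634 values of 105 single genes, 628 stayed within their counting interval and 0 of the called genes changed sign. No paired analysis was possible because control and iFIRKO had a single library apiece. For *Hfe* and *Tfrc*, counting error alone reached about 0.1 on the log2 scale. Variation between mice adds to it and was not measured, so the smallest genotype difference that could be seen is not known.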
